A study of Mus musculus with 15 samples.

Results

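A set of 41 genes of the autophagy machinery were followed in BV2 cells, an immortalised mouse microglial line, with and without Trem2 and with and without a cholesterol load. The 41 genes were picked by symbol and known role from the 54390 genes in the count tables, with earlier results of these data known, and were ordered by the step of autophagy that they serve. Of these, 40 passed the filter on low counts and were tested, and Optn did not pass because no read was counted for it in any of the 15 libraries. WT non-foamy cells (n = 4) and Trem2-/- non-foamy cells (n = 3) were kept in media alone, and WT foamy cells (n = 4) and Trem2-/- foamy cells (n = 4) received 20 µg/ml soluble cholesterol overnight, carried by methyl-beta-cyclodextrin. The Trem2-/- cells were made by CRISPR in a BV2 clone that expresses Cas9, with puromycin selection and isolation of single clones, so the loss of Trem2 cannot be told apart from the history of a clone. Which clone was sequenced and whether the WT cells carried Cas9 is not given in the sources used here. Foamy cells received the carrier and the non-foamy cells did not, so cholesterol and carrier cannot be told apart. Nothing states that libraries of a group came from separate cultures, so p-values measure the spread between these libraries, which may be technical.

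Autophagy encloses cytoplasm in a double membrane and delivers it to the lysosome. A kinase complex (Ulk1 or Ulk2 with Rb1cc1, Atg13 and Atg101) starts the process, a lipid kinase complex around Pik3c3 and Becn1 marks the membrane, and lipid carriers and lipid sensors let the membrane grow. A ubiquitin-like conjugation pathway (Atg7, Atg3, Atg10, Atg12, Atg5 and Atg16l1) then attaches proteins of the LC3 and GABARAP family to the membrane, where cargo receptors such as Sqstm1 and Nbr1 bind them. In macrophages, autophagy also takes up lipid droplets and feeds their cholesterol esters to the lysosome.

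The libraries held 23538963 to 41683825 counted reads each, and levels are given as CPM, the reads of a gene scaled by the library total after TMM correction. Trem2 RNA was at 327 to 415 CPM in the 8 WT libraries and at 214 to 232 CPM in the 7 Trem2-/- libraries, so the transcript was lower but present in cells labelled Trem2-/-. The paper reports loss of Trem2 protein from its Trem2-/- BV2 cells by flow cytometry, and RNA levels do not measure protein. Of 15 macrophage and microglia markers, all were detected, while the microglial markers P2ry12, Tmem119 and Cx3cr1 reached at most 2.46, 0.73 and 1.96 CPM. The summed level of the 15 markers was 7340 to 9351 CPM in WT and 12296 to 13534 CPM in Trem2-/- libraries, and the part of this difference in the results was not tested. Lyz2 weighed most in this sum, with means of 3252 CPM in WT and 6318 CPM in Trem2-/- non-foamy cells. Not all markers were higher in Trem2-/- non-foamy cells. Cd14 had means of 118 CPM in WT and 64.2 CPM in Trem2-/- cells, and P2ry12 and Cx3cr1 were also lower. Markers of neurons, astrocytes, fibroblasts, endothelial cells, epithelial cells and lymphocytes summed to at most 0.51 CPM per list and library, and those of oligodendrocytes to at most 2.57 CPM. WT non-foamy replicate 3 stood apart, with the lowest read total, 7.97% mitochondrial reads against 6.55% to 6.73% in the other libraries of its group, and relatively lower counts for long genes. Trem2-/- foamy replicate 4 had 8.05% mitochondrial reads against 6.53% to 7.51% in its group, the lowest TMM factor (0.918) and relatively lower counts for genes rich in G and C. WT foamy replicate 1 had 5.83% mitochondrial reads against 6.57% to 7.76% in its group and relatively higher counts for long genes and for genes rich in G and C.

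Levels of the 41 genes differed widely. In WT non-foamy cells, per kilobase of exonic length, Gabarap was highest at 262 CPM per kb, and the cargo receptor Sqstm1 followed at 51.4 CPM per kb. Gabarapl2, Gabarapl1, the initiation factor Atg13 and Map1lc3b lay close together at 34.8, 34.5, 33.8 and 32.1 CPM per kb. The initiation kinase Ulk1 (1.04 CPM per kb) and the phosphoinositide sensor Wipi1 (0.46 CPM per kb) were the lowest of the detected genes. Optn, which encodes the cargo receptor optineurin, had 0 of 503704621 reads in the 15 libraries, which allows a level of up to 0.006 CPM (3 reads, counting error only). The neighbouring gene Mcm10 had 643 to 2375 reads per library, the neighbour Ccdc3 had 0 to 2, and 34.0% of the 21793 protein-coding genes in the tables were also at 0 throughout.

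Promoter sequences were at hand for 33 of the 41 genes, as RefSeq windows on GRCm38.p6 from 250 bases before to 50 after a start, and were searched for the E-box bound by the TFEB family, which is known for control of autophagy and lysosome genes. The E-box CACGTG reads the same on both strands, and the longer TCACGTGA contains it. CACGTG was present in 5 of the 33 genes (15.2%), against 8.09% of all 27025 genes with a window and 7.15% of all 32851 windows. TCACGTGA was present in 1 of the 33 (3.03%), Atg3, against 1.12% of all genes. The matches are shown because they can be read beside the changes of the genes that carry them, with the E-box in capitals and 10 bases on each side.
Atg7 (chr6:114670954-114670979, plus strand): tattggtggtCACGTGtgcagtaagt
Atg5 (chr10:44268315-44268340, plus strand): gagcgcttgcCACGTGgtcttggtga
Atg14 (chr14:47568420-47568445, minus strand): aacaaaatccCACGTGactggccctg
Rubcn (chr16:32868439-32868464, minus strand): cctagcacatCACGTGtacccaggtt
Atg3 (chr16:45158725-45158750, plus strand): ctccttttgtCACGTGtcctgggaga
Atg3 (chr16:45158748-45158773, plus strand): agagtcgagtCACGTGaggccttagg
The Atg3 and Atg5 matches lay upstream of the gene in the GENCODE annotation, those of Atg7 and Rubcn lay in an intron, before an inner start, and the Atg14 match lay in an exon of an annotated transcript. No window was at hand for Rb1cc1, Becn1, Pik3c3, Wdr45b, Atg12, Atg16l1, Map1lc3a and Epg5. For the LC3 and GABARAP family, whose members rose together in the comparisons of genotypes, the stretches upstream of Gabarapl1, Gabarapl2 and Map1lc3b are shown in lower case up to the base before the first annotated exon. None of these windows holds either motif.
Map1lc3b (chr8:121590188-121590360, plus strand): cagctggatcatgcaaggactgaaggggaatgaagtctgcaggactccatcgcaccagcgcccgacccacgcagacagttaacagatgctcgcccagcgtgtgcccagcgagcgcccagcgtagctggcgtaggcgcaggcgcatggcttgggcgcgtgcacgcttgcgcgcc
Gabarapl1 (chr6:129532942-129533159, plus strand): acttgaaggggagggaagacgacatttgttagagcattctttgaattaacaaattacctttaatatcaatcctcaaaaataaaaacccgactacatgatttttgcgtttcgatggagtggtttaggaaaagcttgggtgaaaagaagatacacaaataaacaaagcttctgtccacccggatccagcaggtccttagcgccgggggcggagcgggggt
Gabarapl2 (chr8:111940453-111940702, plus strand): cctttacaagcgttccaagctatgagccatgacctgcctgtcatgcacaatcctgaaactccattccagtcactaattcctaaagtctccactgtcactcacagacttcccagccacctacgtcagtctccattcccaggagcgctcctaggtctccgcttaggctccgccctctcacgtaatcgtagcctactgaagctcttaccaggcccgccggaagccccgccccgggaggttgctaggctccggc
These 3 stretches differed in base composition, with 43.6% G and C for Gabarapl1, 57.2% for Gabarapl2 and 65.9% for Map1lc3b.

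The first comparison asked how loss of Trem2 bears on these genes in cells without added cholesterol. Of the 40 tested genes, 19 were higher and 3 were lower in Trem2-/- than in WT non-foamy cells (edgeR quasi-likelihood test, Benjamini-Hochberg adjusted p under 0.05 over all 14237 tested genes). Among all tested genes 21% were called higher and 22.6% lower. All 5 genes of the LC3 and GABARAP family were higher, as were 4 of the 5 initiation genes, 3 of the 4 tested cargo receptors, 3 of 11 conjugation genes, 2 of 7 nucleation genes and 2 of 7 expansion genes. The median log2 fold change of the 40 was 0.13, against 0.02 over all tested genes. In all that follows, an error after ± is the standard error (s.e.) of a log2 fold change, or the SD of a mean CPM. Libraries of the groups did not overlap for 17 genes that lay higher and 3 that lay lower in Trem2-/- cells, against 22.6% and 23.5% of all tested genes. In bulk RNA, fewer cells of a kind and less RNA per cell cannot be told apart.

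**Figure D1:**
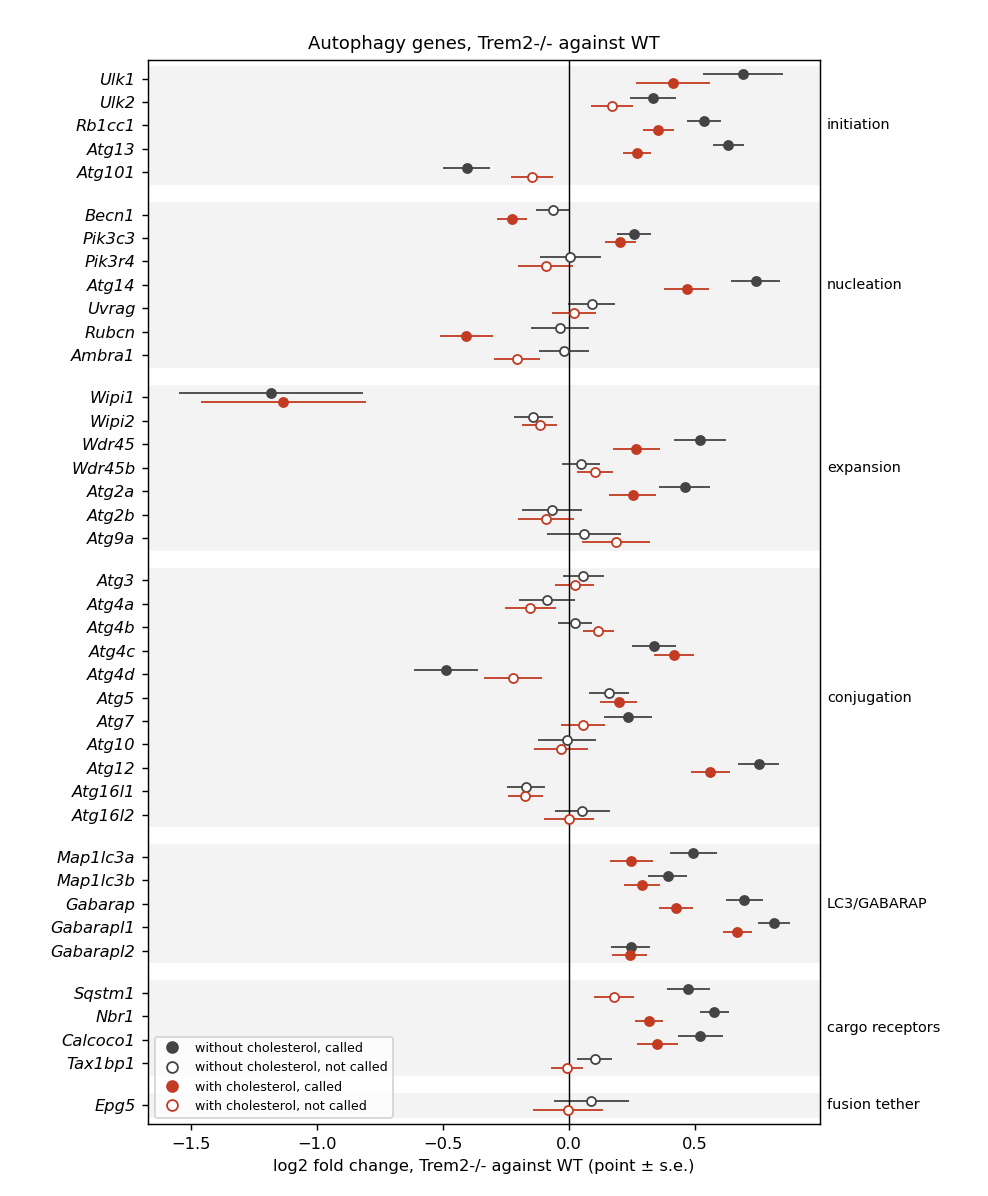
Log2 fold change of each tested autophagy gene in Trem2-/- against WT cells, without cholesterol (grey) and with cholesterol (red), grouped by step. Points are edgeR estimates with bars of 1 s.e., and filled points passed an adjusted p under 0.05. All 5 LC3 and GABARAP genes were filled on the right of 0 in both conditions, and Wipi1 was lowest in both.

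Gabarapl1 (GRCm38 chr6:129533160-129542346), a GABARAP protein that is attached to autophagosome membranes, showed the largest rise of the 40 genes. It was at 67.3, 71.5, 67.1 and 71.9 CPM in the WT non-foamy libraries and at 124, 125 and 117 CPM in the Trem2-/- non-foamy libraries, with replicates in the order of their numbers here and below. Every Trem2-/- library lay above every WT library, and the log2 fold change was 0.81 ± 0.06 (adjusted p = 6.89e-10). Gabarap itself (chr11:69991143-69994951), the gene with the highest level, was at 472, 482, 534 and 449 CPM in WT and 798, 821 and 734 CPM in Trem2-/- libraries. The groups lay well apart, with a log2 fold change of 0.70 ± 0.07 (adjusted p = 7.46e-08). Gabarapl1 shares 28.3% of its exonic bases with the opposite-strand gene 1700101I11Rik, which had only 2 to 12 reads per library.

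The LC3 genes rose less. Map1lc3a was at 25, 26.4, 31.7 and 26.1 CPM in WT and 35.7, 39.9 and 39.5 CPM in Trem2-/- libraries. Map1lc3b, the LC3 form most used as an autophagosome marker, was at 225, 238, 278 and 226 CPM in WT and 313, 313 and 325 CPM in Trem2-/- libraries. For both, WT replicate 3 was the highest WT library and still lay below all Trem2-/- libraries. The log2 fold change of Map1lc3a was 0.49 ± 0.09 (adjusted p = 1.50e-04), and that of Map1lc3b was 0.39 ± 0.08 (adjusted p = 2.11e-04). Gabarapl2 was at 80.1, 76.7, 92.6 and 74.5 CPM in WT and 98.9, 96.4 and 92.5 CPM in Trem2-/- libraries. Its highest WT library reached the range of the Trem2-/- libraries, and its log2 fold change was 0.25 ± 0.08 (adjusted p = 0.0121). The Gabarapl2 call was lost without Trem2-/- non-foamy replicate 1, where the adjusted p was 0.0574. Of the 50-base stretches in Gabarapl2 transcripts, 12.2% also occur in its pseudogenes.

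In the initiation complex, 4 of 5 genes rose and 1 fell. Ulk1, the kinase that starts autophagy, was at 5.08, 8.15, 7.17 and 6.69 CPM in WT and 10.5, 10.5 and 11.7 CPM in Trem2-/- non-foamy libraries. Its paralog Ulk2 rose by 0.33 ± 0.09 on the log2 scale. Atg13 (chr2:91674618-91710576), the adaptor that holds the kinase complex together, was at 150.3, 155, 141 and 144 CPM in WT and 237, 221 and 229 CPM in Trem2-/- libraries. Ulk1 and Atg13 showed no overlap between groups, with log2 fold changes of 0.69 ± 0.16 (adjusted p = 0.00103) and 0.63 ± 0.06 (adjusted p = 2.16e-08). The scaffold Rb1cc1 (also FIP200) rose by 0.54 ± 0.07. Against these, Atg101, which stabilises Atg13, was at 20, 22.3, 20.4 and 19.4 CPM in WT and 16.1, 14.4 and 16 CPM in Trem2-/- libraries. Every Trem2-/- library of Atg101 lay below every WT library, and the log2 fold change was -0.41 ± 0.09 (adjusted p = 0.00113).

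Among the nucleation genes, Atg14 (chr14:47540893-47570649), the subunit that directs the lipid kinase complex to autophagy, rose most. It was at 21.4, 22.5, 17.2 and 19.2 CPM in WT and 34.6, 34.3 and 32.2 CPM in Trem2-/- non-foamy libraries. The Trem2-/- libraries all lay above the WT libraries, and the log2 fold change was 0.74 ± 0.10 (adjusted p = 1.43e-06). Atg14 is one of the genes with the E-box printed above. Pik3c3, the catalytic lipid kinase, rose by 0.26 ± 0.07. Its partners Becn1, Pik3r4, Uvrag, Rubcn and Ambra1 did not pass the test, with log2 fold changes from -0.06 (Becn1) to 0.09 (Uvrag). Of the exonic bases of Uvrag, 17.6% overlap Gm45187 on the opposite strand. Of the exonic bases of Becn1, 43.9% overlap Cntd1 on the opposite strand, which had 24 to 75 reads per library.

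At the expansion step, the lipid carrier Atg2a rose by 0.46 ± 0.10 and the phosphoinositide-binding Wdr45 by 0.52 ± 0.10. Wipi1 (chr11:109573331-109611967), a sensor of the lipid made by Pik3c3, was at 2.20, 2.96, 0.792 and 2.23 CPM in WT and 1.03, 1.05 and 0.662 CPM in Trem2-/- libraries. WT replicate 3 lay among the Trem2-/- libraries, and the log2 fold change of Wipi1 was -1.18 ± 0.37 (adjusted p = 0.0113). This call was lost without Trem2-/- non-foamy replicate 3, where the adjusted p was 0.0599. The membrane scramblase Atg9a, the lipid carrier Atg2b, Wipi2 and Wdr45b did not pass the test and lay between -0.14 and 0.06. Of the exonic bases of Atg9a, 32.6% overlap other genes.

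In the conjugation pathway, Atg12, the ubiquitin-like protein that is joined to Atg5, rose most. It was at 60.2, 53.8, 70.5 and 57.2 CPM in WT and 103, 108 and 93.9 CPM in Trem2-/- non-foamy libraries. No WT library came near the Trem2-/- libraries, and the log2 fold change was 0.75 ± 0.08 (adjusted p = 1.13e-07). Among the proteases that trim and release LC3 proteins, Atg4c rose by 0.34 ± 0.09, while Atg4d was at 8.90, 9.37, 8.93 and 7.14 CPM in WT and 5.98, 5.63 and 6.69 CPM in Trem2-/- libraries. Atg4d lay lower in every Trem2-/- library, with a log2 fold change of -0.49 ± 0.13 (adjusted p = 0.00355), and 19.3% of its exonic bases overlap Kri1 on the opposite strand. Atg7, the activating enzyme of the pathway, passed only narrowly at 0.23 ± 0.09 (adjusted p = 0.0497). Its call was lost without WT non-foamy replicate 1, 3 or 4 or Trem2-/- non-foamy replicate 1 or 3, with adjusted p from 0.0588 to 0.229. Atg3, Atg5, Atg10, Atg16l1, Atg16l2, Atg4a and Atg4b did not pass the test. Of the 50-base stretches in Atg4a transcripts, 51.2% also occur in other genes, mostly in Atg4a-ps, which had 0 to 9 reads per library. Atg16l1, which sets where LC3 is attached, lay lower in every Trem2-/- library, with a log2 fold change of -0.17 ± 0.07 (adjusted p = 0.0713). The Atg3 gene, which holds the only TCACGTGA among the 33 genes of the set with a window, had a log2 fold change of 0.06.

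The cargo receptors Sqstm1 (p62), Nbr1 and Calcoco1 rose. Sqstm1 was at 187, 184, 157 and 162 CPM in WT and 246, 226 and 246 CPM in Trem2-/- non-foamy libraries. Nbr1 was at 123, 122, 117 and 114 CPM in WT and 186, 176 and 171 CPM in Trem2-/- libraries. For both genes the groups lay apart, with log2 fold changes of 0.47 ± 0.09 (adjusted p = 9.39e-05) for Sqstm1 and 0.58 ± 0.06 (adjusted p = 4.42e-08) for Nbr1. Sqstm1 shares 17.3% of its exonic bases with Mrnip on the opposite strand, which had 64 to 156 reads per library. Calcoco1, a receptor for autophagy of the endoplasmic reticulum, rose by 0.52 ± 0.09. Tax1bp1, a receptor for ubiquitinated cargo, and the fusion tether Epg5 did not pass, at 0.10 and 0.09.

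**Figure D2:**
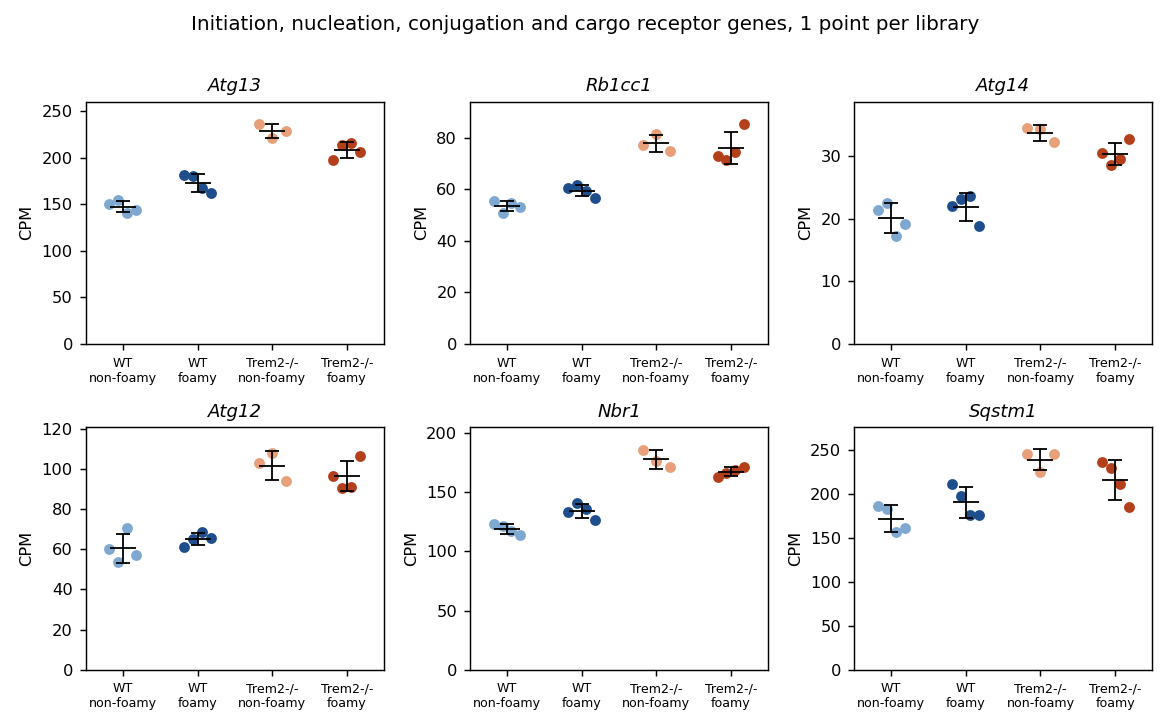
CPM of Atg13, Rb1cc1, Atg14, Atg12, Nbr1 and Sqstm1, with 1 point per library and bars for the mean ± SD of each group (n = 4, 4, 3 and 4). In each panel the Trem2-/- means lay above the WT means and the Trem2-/- foamy mean below the Trem2-/- non-foamy mean, while single Sqstm1 values of the foamy groups overlapped.

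With total counts alone in place of TMM, the median of all tested genes moved to -0.13 and that of the 40 to -0.01 on the log2 scale, a difference of 0.12 against 0.11 with TMM, and 14 of the 40 genes were called higher and 6 lower. Of all 14237 tested genes, 6199 were called in either direction with total counts alone, against 6207 with TMM. Their split by direction with total counts is not given here. The LC3 and GABARAP genes kept log2 fold changes above 0 under every scaling, and 4 of the 5 kept their call with total counts alone, with the exception of Gabarapl2 (adjusted p = 0.146). Without WT non-foamy replicate 3 and WT foamy replicate 3, 19 genes were called higher and 4 lower, and 6458 of all tested genes were called in either direction.

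The second comparison put Trem2-/- against WT cells after the cholesterol load. Of the 40 genes, 17 were higher and 3 were lower in Trem2-/- foamy cells, and among all tested genes 14.3% were called higher and 15.9% lower. All 5 LC3 and GABARAP genes were again higher, with 3 of 5 initiation genes, 2 of 4 cargo receptors, 3 of 11 conjugation genes, 2 of 7 expansion genes and 2 of 7 nucleation genes. The median log2 fold change of the 40 was 0.14, against 0.00 over all tested genes. The groups did not overlap for 13 genes that lay higher and 4 that lay lower, against 13.8% and 15% of all tested genes. With total counts alone, the median of all tested genes moved to -0.13 and that of the 40 to 0.01, a difference of 0.14 as with TMM, and 8 of the 40 were called higher and 10 lower. Of all 14237 tested genes, 4781 were called in either direction with total counts alone, against 4297 with TMM. Their split by direction with total counts is not given here. Without WT non-foamy replicate 3 and WT foamy replicate 3, 14 of the 40 were called higher and 4 lower. Without Trem2-/- foamy replicate 4, 17 were called higher and 3 lower, and without WT foamy replicate 1, 16 and 3. Of all tested genes, 4706 were called in either direction without replicate 3 of both WT groups. This number was 3711 without Trem2-/- foamy replicate 4 and 3874 without WT foamy replicate 1, so it moved as well. Called higher in both comparisons were 16 genes: the LC3 and GABARAP family, Ulk1, Rb1cc1, Atg13, Pik3c3, Atg14, Wdr45, Atg2a, Atg4c, Atg12, Nbr1 and Calcoco1. Wipi1 was the single gene called lower in both, and 15 of the 40 were called in neither. The comparisons share no library but share 1 fit over the 15 libraries. The shares of all tested genes called in both or in neither are not given here.

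Gabarapl1 again rose most of the 40 genes. It was at 78, 83.3, 75.5 and 72 CPM in WT foamy and 129, 125, 117 and 120.5 CPM in Trem2-/- foamy libraries. All Trem2-/- libraries lay above the WT libraries, with a log2 fold change of 0.67 ± 0.06 (adjusted p = 1.42e-08). Gabarap was at 480.3, 551, 582 and 529 CPM in WT and 744, 697, 686 and 751 CPM in Trem2-/- foamy libraries, again without overlap, and its log2 fold change was 0.43 ± 0.07 (adjusted p = 5.73e-05). Map1lc3b was at 231, 269.6, 283 and 275 CPM in WT and 335, 311, 314 and 333 CPM in Trem2-/- libraries, and Gabarapl2 at 74.2, 85.2, 82.3 and 90.8 and 100.1, 93.1, 96.2 and 104 CPM. Neither showed overlap, with log2 fold changes of 0.29 ± 0.07 (adjusted p = 0.00341) for Map1lc3b and 0.24 ± 0.07 (adjusted p = 0.0127) for Gabarapl2. Map1lc3a was at 26.5, 32.7, 28 and 31.4 CPM in WT and 36.5, 36.4, 36.6 and 31.2 CPM in Trem2-/- libraries. Trem2-/- replicate 4 lay within the WT range, and the log2 fold change of Map1lc3a was 0.25 ± 0.09 (adjusted p = 0.0329). The Map1lc3a call was lost without WT foamy replicate 1 or 3 or Trem2-/- foamy replicate 1, 2 or 3, with adjusted p from 0.0754 to 0.106, and with total counts alone that of Map1lc3a (0.294) and Gabarapl2 (0.121) was lost.

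Next to this family, Atg12 and Atg14 rose most. Atg12 was at 61.4, 65.4, 68.6 and 65.5 CPM in WT and 96.8, 90.7, 91 and 107 CPM in Trem2-/- foamy libraries. Atg14 was at 22.1, 23.2, 23.7 and 18.8 CPM in WT and 30.6, 28.5, 29.6 and 32.7 CPM in Trem2-/- libraries. Neither gene showed overlap between groups, with log2 fold changes of 0.56 ± 0.08 (adjusted p = 7.00e-06) for Atg12 and 0.47 ± 0.09 (adjusted p = 3.50e-04) for Atg14. The protease Atg4c was at 21.8, 24.8, 22.8 and 22.7 CPM in WT and 33.2, 29.3, 28.6 and 31.9 CPM in Trem2-/- libraries, also without overlap, and its log2 fold change was 0.42 ± 0.08 (adjusted p = 4.17e-04). Ulk1 was at 8.60, 7.51, 6.11 and 7.67 CPM in WT and 9.95, 12.1, 10.5 and 7.35 CPM in Trem2-/- foamy libraries. Trem2-/- replicate 4 lay among the WT libraries, and the log2 fold change of Ulk1 was 0.41 ± 0.15 (adjusted p = 0.0345). The Ulk1 call was lost without WT foamy replicate 2, 3 or 4 or Trem2-/- foamy replicate 1, 2 or 3, with adjusted p from 0.0588 to 0.135. Over all 17 alternatives it held in 8, with a highest adjusted p of 0.200.

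The other genes that rose with cholesterol present were Rb1cc1 by 0.36 ± 0.06, Atg13 by 0.27 ± 0.06, Nbr1 by 0.32 ± 0.05 and Calcoco1 by 0.35 ± 0.08 on the log2 scale. Smaller rises were those of Wdr45 (0.27 ± 0.09), Atg2a (0.25 ± 0.09), Pik3c3 (0.20 ± 0.06) and Atg5, the partner of Atg12 (0.20 ± 0.07). Each of these 4 calls was lost when certain single libraries were left out. That of Wdr45 was lost without WT foamy replicate 1 or 2 or Trem2-/- foamy replicate 1 or 3 (adjusted p from 0.0508 to 0.137), and that of Atg2a without WT foamy replicate 2, 3 or 4 or Trem2-/- foamy replicate 2 or 3 (0.0717 to 0.178). The call of Pik3c3 was lost without WT foamy replicate 3 or Trem2-/- foamy replicate 4 (0.0689 and 0.0536), and that of Atg5 without WT foamy replicate 1, 2 or 4 or Trem2-/- foamy replicate 1 or 4 (0.0732 to 0.159). Over all 17 alternatives, the highest adjusted p was 0.435 for Atg2a and for Pik3c3, 0.377 for Atg5 and 0.232 for Wdr45. The calls of Atg13 and Calcoco1 each held in 16 of the 17. Both were lost with total counts alone, with adjusted p of 0.144 and 0.105. Wdr45 shares 24.7% of its exonic bases with Gm45208 on the same strand.

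The 3 genes that fell in foamy cells belonged to nucleation and expansion. Wipi1 was at 2.85, 2.18, 1.96 and 2.12 CPM in WT and 0.945, 1.21, 0.506 and 1.52 CPM in Trem2-/- foamy libraries, without overlap, and its log2 fold change was -1.13 ± 0.33 (adjusted p = 0.0106). Rubcn, an inhibitor of the Pik3c3 complex that carries an E-box before its inner start, was at 30.5, 25.3, 23.2 and 22 CPM in WT and 20.7, 20.2, 19.4 and 15.7 CPM in Trem2-/- libraries. Becn1, the core subunit of that complex, was at 40, 37.6, 40.6 and 42 CPM in WT and 33.7, 34.3, 34 and 34.9 CPM in Trem2-/- libraries. For Rubcn and Becn1 every Trem2-/- library lay below every WT library, with log2 fold changes of -0.41 ± 0.11 (adjusted p = 0.00515) and -0.23 ± 0.06 (adjusted p = 0.00653). Without cholesterol the values for Rubcn and Becn1 were -0.04 and -0.06, and the difference between the conditions did not pass the test for either gene (adjusted p = 0.206 and 0.367). Likewise, the genes called only without cholesterol (Ulk2, Atg7, Sqstm1, Atg101 and Atg4d) and Atg5, called only with it, did not differ detectably between conditions, with adjusted p from 0.178 (Sqstm1) to 0.897 (Atg5).

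The third question was the response to cholesterol within a genotype. In WT cells, Atg13 was the single one of the 40 genes called higher in foamy than in non-foamy cells, and none was called lower. Among all tested genes 1.66% were called higher and 1.14% lower. By DESeq2, 2 of the 40 were called higher and none lower, while 881 of all 14237 tested genes were called in either direction. An unadjusted edgeR p under 0.05 was reached by 5 genes (Atg13, Rb1cc1, Gabarap, Gabarapl1 and Nbr1), all with higher means in foamy cells, and by 16.4% of all tested genes. Of the 40 genes, 31 had a log2 fold change above 0, with a median of 0.09 against 0.01 over all tested genes. The groups did not overlap for 4 genes, Atg13, Rb1cc1, Gabarapl1 and Nbr1, all higher in foamy cells, against 4.56% of all tested genes that lay higher and 5.16% that lay lower without overlap.

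Atg13 was at 150.3, 155, 141 and 144 CPM in WT non-foamy and 182, 180.3, 168 and 162 CPM in WT foamy libraries. All foamy libraries lay above the non-foamy ones, and the log2 fold change was 0.23 ± 0.06 (adjusted p = 0.0318). This call was lost without WT non-foamy replicate 1, 3 or 4 or WT foamy replicate 1, 2 or 3 (adjusted p from 0.0524 to 0.123), with total counts alone (0.101), and without the replicates 3 of both WT groups together (0.0620). Nbr1 had the next smallest p, with 133, 141, 136 and 127 CPM in foamy libraries and a log2 fold change of 0.17 ± 0.05 (adjusted p = 0.0907), which did not pass the test. The LC3 and GABARAP genes had log2 fold changes from 0.04 (Gabarapl2) to 0.15 (Gabarapl1), and the cargo receptor Sqstm1 of 0.15, and none of these passed the test.

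**Figure D3:**
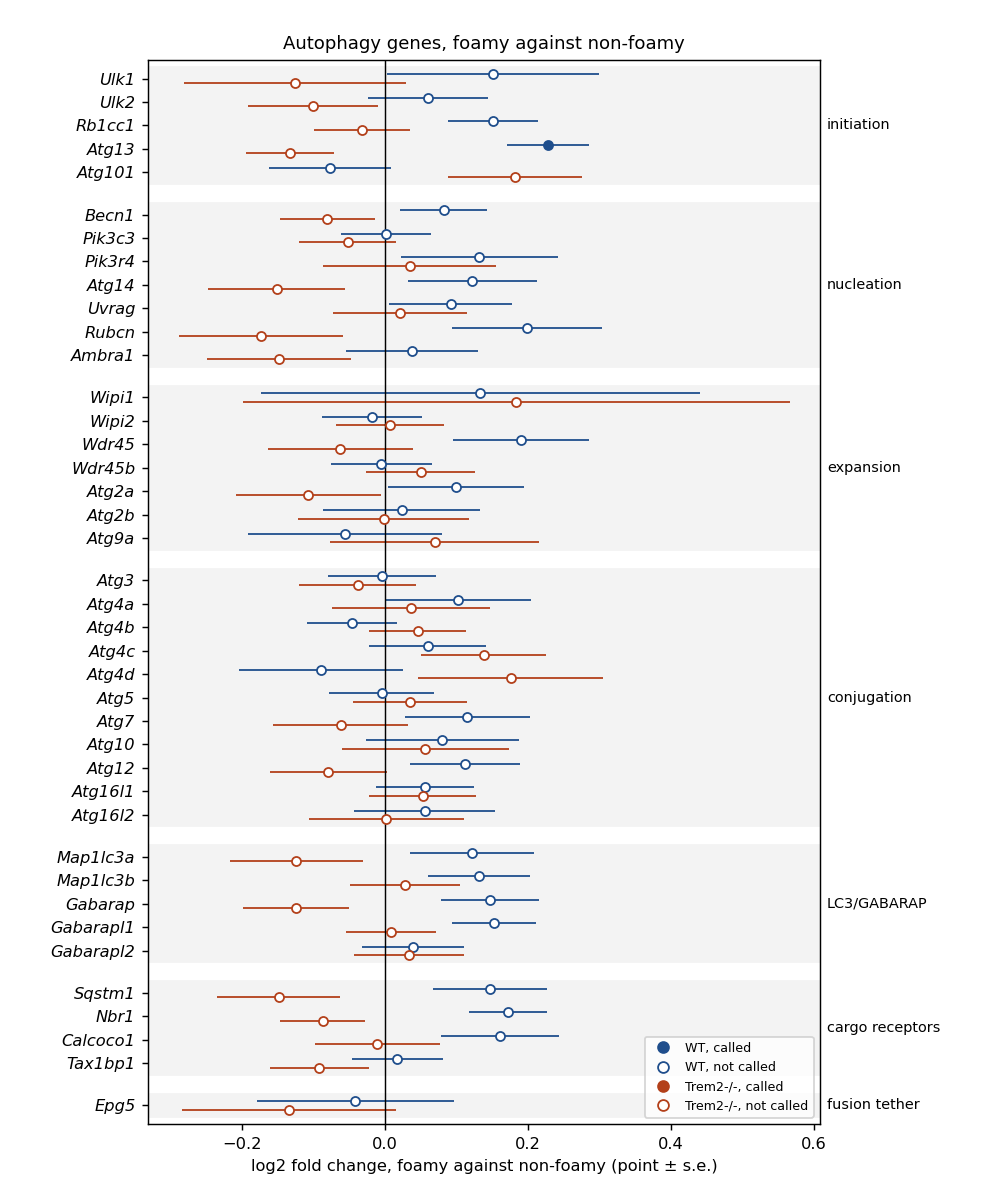
Log2 fold change of each tested autophagy gene in foamy against non-foamy cells, for WT (blue) and Trem2-/- (orange) cells, grouped by step. Points are edgeR estimates with bars of 1 s.e., and Atg13 in WT cells is the single filled point, with an adjusted p under 0.05.

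In Trem2-/- cells, none of the 40 genes was called higher or lower after cholesterol, by edgeR or by DESeq2. By edgeR, 0.105% of all tested genes were called higher and 0.0351% lower, and by DESeq2 56 of them were called in either direction. An unadjusted edgeR p under 0.05 was reached by Atg13 alone, and by 6.45% of all tested genes. Atg13 was at 237, 221 and 229 CPM in Trem2-/- non-foamy and 198, 214, 217 and 207 CPM in Trem2-/- foamy libraries. The foamy libraries all lay below the non-foamy ones, the 1 case among the 40 genes without overlap (of all tested genes, 3.88% lay lower and 5.38% higher without overlap), with a log2 fold change of -0.13 ± 0.06 (adjusted p = 0.772). The 40 log2 fold changes ranged from -0.17 (Rubcn) to 0.18 (Wipi1), 18 lay above 0, and their median was -0.02. All 4 tested cargo receptors lay below 0, from -0.15 for Sqstm1 to -0.01 for Calcoco1, and none passed the test.

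The last comparison tested whether the response to cholesterol differed between the genotypes. Of the 40 genes, Atg13 was called, with a difference of the log2 fold changes (Trem2-/- minus WT) of -0.36 ± 0.08 (adjusted p = 0.019). None was called in the other direction, and among all tested genes 1.64% were called with a lower and 1.99% with a higher response in Trem2-/- cells. The Atg13 difference was lost without WT foamy replicate 2, Trem2-/- non-foamy replicate 1 or Trem2-/- foamy replicate 1 (adjusted p = 0.0533, 0.0735 and 0.0504), and with total counts alone (0.0730). Of the 40 differences, 31 lay below 0, with a median of -0.10 against -0.00 over all tested genes. An unadjusted edgeR p under 0.05 was reached by Atg13, Nbr1 (-0.26), Gabarap (-0.27), Sqstm1 (-0.30), Rubcn (-0.37) and Atg14 (-0.27), all with lower responses in Trem2-/- cells, and by 17.3% of all tested genes. After adjustment, Nbr1 was the nearest of these to the threshold (adjusted p = 0.0749).

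Genes that act above and beyond this machinery were followed in 3 further lists. Of 38 tested genes of upstream control, among them the nutrient sensors of the lysosome surface and the TFEB family, 11 were higher and 8 lower in Trem2-/- non-foamy cells, and 10 were higher and 2 lower in foamy cells. Of all tested genes, 21% were called higher and 22.6% lower in the non-foamy comparison, and 14.3% and 15.9% in the foamy one. Fnip2, which with folliculin acts on the Rag GTPases, rose by 1.02 ± 0.09 and 0.44 ± 0.08 on the log2 scale. The transcription factor Tfeb, a main activator of autophagy and lysosome genes, rose by 0.81 ± 0.10 and 0.40 ± 0.09, from 9.62 ± 0.928 to 16.9 ± 1.63 CPM without cholesterol and from 12 ± 0.751 to 15.8 ± 0.50 CPM with it. Of the other members of its family, Mitf rose by 0.65 ± 0.09 and 0.30 ± 0.08, while Tfe3 was lower in foamy cells, at -0.23 ± 0.08 (adjusted p = 0.0351). Mitf was added to the named genes after its values were seen. Fnip1 rose by 0.66 ± 0.07 and 0.43 ± 0.07, and the Rag GTPase Rragd by 0.52 ± 0.06 and 0.40 ± 0.06. Nprl3, a subunit of an inhibitor of mTORC1, had log2 fold changes of -0.60 ± 0.13 and -0.46 ± 0.12, and Castor2 and Mlst8 of -0.54 and -0.36 without cholesterol. After cholesterol in WT cells Fnip2 was the single gene of this list called, with a log2 fold change of 0.42 ± 0.08. Between the genotypes, the response of Fnip2 differed by -0.58 ± 0.12 (Trem2-/- minus WT, log2 scale) and that of Rraga, a Rag GTPase, by 0.32 ± 0.09.

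Of 20 tested genes for the fusion of autophagosomes with lysosomes, 9 were higher and 2 lower in Trem2-/- non-foamy cells, and 4 were higher and 1 lower in foamy cells (all tested genes, 21% and 22.6%, and 14.3% and 15.9%). Arl8b, a GTPase that moves lysosomes, rose by 0.61 ± 0.07 and 0.27 ± 0.06 in the comparisons without and with cholesterol. Snap29, a SNARE of this fusion, rose by 0.44 ± 0.07 and 0.27 ± 0.07, and the tether Tecpr1 by 0.60 ± 0.10 without cholesterol. The HOPS subunit Vps41 rose by 0.28 ± 0.07 and 0.26 ± 0.06. Vps16, another subunit of the HOPS tether, had log2 fold changes of -0.34 ± 0.07 and -0.23 ± 0.07, and the SNARE Ykt6 of -0.26 without cholesterol. The response of Arl8b to cholesterol differed between genotypes by -0.35 ± 0.09 (Trem2-/- minus WT), the single call of this list among the responses.

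Of 26 tested further factors, 12 were higher and 4 lower in Trem2-/- non-foamy cells, and 12 were higher and 3 lower in foamy cells, beside the same shares of all tested genes (21% and 22.6%, and 14.3% and 15.9%). Pink1, the kinase that marks damaged mitochondria for autophagy, rose by 0.96 ± 0.08 and 0.55 ± 0.07. Sh3glb1, a partner of the Becn1 complex, rose by 0.84 ± 0.06 and 0.54 ± 0.06. Hmgb1 had log2 fold changes of -0.91 ± 0.08 and -0.44 ± 0.07, and the mitochondrial receptor Phb2 of -0.73 ± 0.07 and -0.52 ± 0.07. Atg9b was lower without cholesterol (-0.74) and Ulk3 with it (-0.43). Pink1 was also higher after cholesterol in WT cells, by 0.34 ± 0.07, and the responses of Pink1 and Hmgb1 differed between genotypes by -0.41 ± 0.10 and 0.48 ± 0.11 (Trem2-/- minus WT).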

How the data were processed

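Total RNA of 15 BV2 libraries was sequenced after library preparation with a TruSeq RNA kit. The deposited values are whole-number read counts per gene, with 1 table for each library. By the study's methods, the authors used the CHURP pipeline (Trimmomatic, HISAT2, SAMtools and featureCounts) on GRCm38 with Ensembl release 102, and the labels name mm10. Strand setting and the treatment of reads with several matches are not given in the sources used here, so overlapping exons and shared 50-base stretches were computed from GENCODE M21 annotation and transcripts. No column belonged to samples of another series.

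Genes were filtered with filterByExpr (minimum count 10), which kept 14237 of 54390 genes, and scaled with TMM factors (0.918 to 1.11). The factors went with genotype, with medians of 1.07 in WT non-foamy, 1.03 in WT foamy, 0.942 in Trem2-/- non-foamy and 0.958 in Trem2-/- foamy libraries. WT non-foamy replicate 3, at 0.966, lay in the range of the Trem2-/- libraries. A quasi-likelihood model (edgeR 4.0.16, R 4.3.3) was fitted over the 15 libraries with a mean for each of the groups and tested in 5 comparisons, with a biological coefficient of variation of 10.2%. Genes were called at a Benjamini-Hochberg adjusted p under 0.05 over all tested genes, and every adjusted p is from this test unless DESeq2 is named. Errors of log2 fold changes are standard errors of the coefficients, and those of CPM are SD. Total read counts per library limit precision, and PCR reads carry no molecular identifiers, so the limit given for a count of 0 covers counting error only. The procedure was tested on simulated data.

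The 41 genes, their steps, the 3 further lists (41, 21 and 30 genes) and the motifs were chosen with earlier results of these data known. Any of the 41 genes could be named. Values per library were given for up to 6 called genes with the largest change per direction and comparison and for the LC3 and GABARAP family and complexes, and up to 3 called genes per direction and comparison were named from each further list. A gene of the last list that this rule names is not reported here. The alternatives were no filter, at least 10 counts in every library, RLE factors, total counts alone, a replicate block, removal of trends on length and GC content, only the libraries of the groups compared, DESeq2 1.42.0, and each library left out in turn. Leaving out replicate 3 of both WT groups was added after the data were seen. Same-numbered libraries of different groups deviated from their group means with correlations of -0.40 to 0.64, over 0.1 in 6 of 21 pairs, so replicate numbers were not taken as pairs. No pair of replicates agreed within sampling noise (chi-square per gene from 5.75 to 43.3 over 21 pairs).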

Additional observations from a re-analysis of the deposited data

Results flagged for a closer look

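Among 120 groups of 4 libraries, 1 for each tested autophagy gene and group with 4 replicates, 4 held a library that stood far from the other 3. By the rule used, chance gives about 1 in 20 among independent groups. The genes share libraries, so the groups were not independent, and the 4 cases were not tested against chance. Atg3 was at 46.5 CPM in WT foamy replicate 1, against 50.8 to 51.7 CPM in the other WT foamy libraries. Atg5 was at 59.7 CPM in WT non-foamy replicate 3, against 49.4 to 50.8 CPM in the others, and Atg10 was at 20.0 CPM in the same library, against 15.5 to 16.1 CPM. This library also had the lowest read total and relatively lower counts for long genes, whose part in these values was not tested. Map1lc3a was at 31.2 CPM in Trem2-/- foamy replicate 4, against 36.4 to 36.6 CPM in the others of its group, and without this library the log2 fold change between foamy Trem2-/- and WT cells was 0.30 (edgeR adjusted p = 0.0139).

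The response of Atg13 to cholesterol differed between genotypes by a test of the difference itself, at -0.36 ± 0.08 on the log2 scale (Trem2-/- minus WT, edgeR adjusted p = 0.0190). It was higher in all WT foamy libraries than in all WT non-foamy libraries, and lower in all Trem2-/- foamy libraries than in all Trem2-/- non-foamy libraries.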

How the results depend on the processing

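No call changed direction under any alternative, and 27 of the 44 calls of an autophagy gene in a comparison held under every alternative run for them, 16 for the genotypes without cholesterol and 11 with cholesterol. All 44 held with RLE factors, with at least 10 counts in every library, with trends on length and GC content removed and with DESeq2, 39 held without a filter and 28 with total counts alone. For Atg13 after cholesterol in WT cells, the count of called genes (1) became 0 with total counts alone, with only the libraries compared and without replicates 3 of the WT groups, became 2 with trends removed and with DESeq2, and was 0 to 1 with each library left out. Between genotypes without cholesterol, the count of lower genes (3) became 6 with total counts alone and 5 with trends removed. With each library left out, 17 to 19 genes were higher and 2 to 3 lower. With cholesterol, 17 higher and 3 lower became 8 and 10 with total counts alone, and 13 to 17 and 3 to 4 with each library left out. The count of lower responses (1) became 4 with trends removed, 2 with DESeq2, and 0 to 2 with each library left out. Calls over all tested genes, in either direction, moved as well. For cholesterol in WT cells they were 399 in the main test, 1007 with trends removed and 881 with DESeq2. For the difference of responses they were 518, 1241 and 985. Between genotypes they were 6207 without and 4297 with cholesterol, and 6199 and 4781 with total counts alone. With each library left out, they were 5232 to 6380 without cholesterol and 3640 to 4192 with it. The same settings gave 146 to 526 for cholesterol in WT cells and 201 to 661 for the difference of responses. With a replicate block they were 5904 and 4151 between genotypes, 312 for cholesterol in WT cells, 15 in Trem2-/- cells and 294 for the difference of responses. The causes were not tested. With a replicate block, although the numbers did not pair the libraries, 18 genes were higher and 3 lower without cholesterol, 15 higher and 3 lower with it, 1 was higher after cholesterol in WT cells, none was called in Trem2-/- cells, and 1 response was lower, so 40 of the 44 calls held. Wipi1 was the lowest of the called genes, at 0.51 to 2.96 CPM, and its standard errors of 0.33 to 0.37 between genotypes limit what can be detected.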
